A study of Mus musculus with 8 samples.

Results

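Polyamines (putrescine, spermidine and spermine) are small cations made from the amino acid ornithine, and their genes were followed from normal mouse prostate to prostatic intraepithelial neoplasia (PIN) and prostatic adenocarcinoma (PCa). The genes were taken by symbol from the count table: *Odc1*, *Amd1*, *Srm*, *Sms*, *Sat1*, *Smox*, *Paox*, *Oaz1*, *Oaz2* and *Azin1*. Of these 10 genes, 9 were found among the 27036 genes of the table and *Oaz2* is not analysed here. All 9 were among the 14034 genes tested, which needed a level above 1 CPM (counts relative to library size) in 2 or more libraries.

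The study used mice in which a transgene, kept silent in the *Rosa26* locus by LoxP sites, is switched on by Cre from the *Osr1* locus. PIN and PCa tissues came from mice with this transgene and the mTmG reporter at *Rosa26* and with Osr1 Cre/+, of mixed C57BL/6 and 129S1/SvImJ background, and were judged under the microscope to be mostly atypical or tumor cells. WT prostates came from sex- and age-matched mice, for which the study gives the genotype R26 mTmG/+:Osr1 Cre/+, so that reporter and Cre are shared by all groups and the transgene is not. The ages at which these tissues were taken are not given in the sources used here. Per the study, the transgene is active in luminal and basal epithelial cells of the *Osr1* lineage, whereas the RNA came from whole tissue. The RNA was sequenced in 3 WT, 3 PIN and 2 PCa libraries with 21751803 to 29730420 counted reads each.

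Prostate is known for its high polyamine production, and spermine is secreted into seminal fluid. ODC1 decarboxylates ornithine to putrescine, AMD1 supplies the aminopropyl donor, and the synthases SRM and SMS add 1 such group each to give spermidine and then spermine. Antizymes such as OAZ1 bind ODC1 and send it to the proteasome, and AZIN1, which resembles ODC1 but lacks its activity, binds the antizyme instead. SAT1 acetylates spermidine and spermine for export or for oxidation by PAOX, while SMOX oxidises spermine directly back to spermidine. *Odc1* is a textbook target of both androgen and MYC.

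Antizyme is made only when ribosomes shift reading frame inside its message, a step that polyamines promote, so a count of *Oaz1* reads is not a count of antizyme protein. The shift site is shown because it limits what the *Oaz1* values below stand for. It was identified as the only exonic TCCTGA whose flanks the annotated transcript joins, and other copies of these letters were not counted. The site lies in the coding part of the gene, at chr10:80291037-80291042 on the plus strand of mm9. The stretch printed here covers chr10:80291010-80291069, and the capitals mark the last codon before the shift and the stop codon that the shift avoids.
Oaz1: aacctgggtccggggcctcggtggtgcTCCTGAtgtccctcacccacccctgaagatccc

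Promoters are shown for *Odc1* and *Sat1*, the genes for the entry into synthesis and the entry into breakdown, whose ratio in PCa was furthest from that in WT among the 6 ratios given below. Both are the 250 bases before the start of the gene in the RefSeq table for GRCm38.p6, *Odc1* at chr12:17544623-17544872 on the plus strand and *Sat1* at chrX:155216450-155216699 on the minus strand. Capitals mark the GC box, searched as GGGCGG on both strands.
Odc1: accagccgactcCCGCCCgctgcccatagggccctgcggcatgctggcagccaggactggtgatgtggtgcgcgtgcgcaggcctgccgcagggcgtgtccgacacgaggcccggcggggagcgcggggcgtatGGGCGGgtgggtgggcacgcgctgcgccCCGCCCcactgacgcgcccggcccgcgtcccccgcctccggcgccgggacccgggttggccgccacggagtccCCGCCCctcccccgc
Sat1: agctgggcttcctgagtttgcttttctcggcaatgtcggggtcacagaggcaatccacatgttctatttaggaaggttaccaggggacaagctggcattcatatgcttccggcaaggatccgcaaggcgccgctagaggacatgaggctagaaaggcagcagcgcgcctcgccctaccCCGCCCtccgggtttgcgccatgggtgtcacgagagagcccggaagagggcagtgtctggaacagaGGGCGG

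The *Odc1* stretch held 4 GC boxes and the *Sat1* stretch 2. Over windows reaching 50 bases past the start, 35.7% of 32851 promoters held at least 1. Neither window held the E-box CACGTG, present in 7.15% of promoters, the cyclic AMP response element TGACGTCA (1.79%), the polyamine-responsive element TATGACTAA (0.0974%) or the androgen response element (0.475%). An E-box was found at 1 of the 2 *Sms* start sites, and *Oaz1* held TATAAA (13.6% of promoters) and CCAAT (37.4%). Entries were matched for 8 of the 10 genes, and *Srm* and *Azin1* were not among them. These are matches of letters in short windows and carry no statement on the factors that bind them.

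The 8 genes of androgen-driven prostate secretion summed to 46280 to 85220 CPM in WT and PIN and to 1444 to 7998 CPM in PCa, with 2 of them at 0 in WT 2 and 3 at 0 in WT 3. Some libraries stood apart and touch the values below. Seminal vesicle secretory genes (*Svs2*, *Svs3a*, *Svs4*, *Svs5* and *Svs6*) summed to 14560 CPM in WT 1, 3730 CPM in PCa 1 and 285 CPM in PCa 2, against 0.0453 to 28.0 CPM in the other 5 libraries, with up to 4 of the 5 genes at 0. WT 2 had the highest summed level of 6 luminal epithelial markers, 7772 CPM against 1765 to 4773 CPM elsewhere. Of these, *Hoxb13* went the other way among WT libraries, with 178 CPM in WT 2 against 291 CPM in WT 1 and 213 CPM in WT 3. The other markers of that list were each highest in WT 2. All 5 smooth muscle markers were called lower in PCa than in WT and than in PIN, with sums of 1602 to 5006 CPM in WT and PIN and of 16.5 and 27.8 CPM in PCa, and all 7 proliferation markers were called higher in PCa than in WT. The 4 basal epithelial markers summed to 604 CPM in PCa 1 and 27.4 CPM in PCa 2, against 167 to 387 CPM in WT and PIN. In such bulk tissue, fewer cells of a type and less RNA per cell cannot be told apart. WT 1 carries a library number of its own series in the labels, WT 2 and WT 3 share another, and all PIN and PCa libraries have the third, so any difference between these series cannot be told apart from PIN or PCa against WT, whereas PCa against PIN lies within 1 series.

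In TPM, a level per exon length and library size that is used here to compare genes, the 9 genes spanned a wide range in WT prostate. *Oaz1* was highest at 184 ± 51.7 TPM (SD, n = 3), followed by *Azin1* at 170.3 ± 125, *Srm* at 129.8 ± 9.61 and *Sat1* at 125.5 ± 12.9. The ranges of neighbours in this upper part of the order overlapped. *Amd1* (77.6 ± 21.2 TPM) and *Odc1* (55.9 ± 5.40 TPM) came next and overlapped with each other, while every *Amd1* value lay below every *Sat1* value. *Smox* (20.4 ± 9.69 TPM) and *Sms* (17.4 ± 1.71 TPM) overlapped, and *Paox* was lowest at 3.88 ± 1.37 TPM. *Oaz1* stood at the 95th percentile of all tested genes, *Odc1* at the 79.6th and *Paox* at the 23rd.

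In PIN the order of TPM levels was *Oaz1*, *Sat1*, *Azin1*, *Srm*, *Amd1*, *Odc1*, *Sms*, *Smox* and *Paox*. The first 5 of these overlapped each with the next, and from *Amd1* downwards every step was separate. In PCa *Sat1* led at 304 ± 190 TPM (SD, n = 2), with *Azin1* and *Oaz1* after it, and *Sms* was last at 7.52 ± 8.68 TPM. Its range overlapped that of *Paox*, 10.4 ± 4.47 TPM. *Odc1* kept the sixth place in all 3 groups, with PCa values of 32.3 and 32.4 TPM, whereas *Sat1* went from the fourth place in WT to the second in PIN and the first in PCa.

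**Figure D1:**
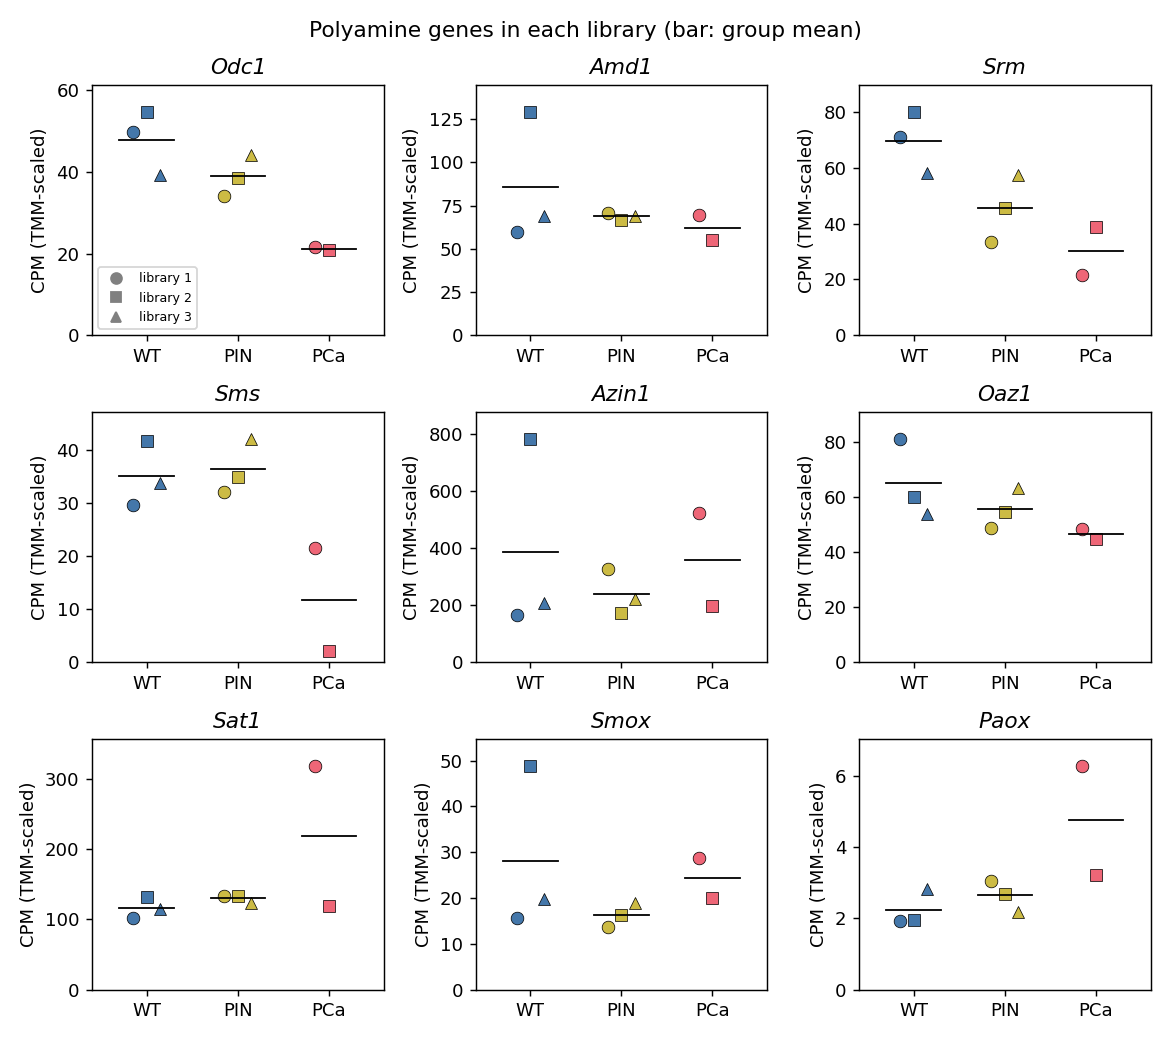
CPM scaled by the trimmed mean of M-values (TMM; linear axes from 0) of the 9 polyamine genes in each library of WT, PIN and PCa. Each point is a library, its shape gives the library number and the bar is the group mean. Both PCa points of *Odc1* lie near 21 CPM, below all WT and PIN points, whereas the PCa points of *Sms* and *Sat1* lie far apart.

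The 4 synthesis genes had lower mean levels in PCa than in WT, and 1 of them, *Odc1*, passed the test. CPM scaled by TMM are used from here on for comparing libraries, and a gene counts as called where its log2 fold change was beyond 1 in either direction and its p, adjusted over all genes tested by the Benjamini-Hochberg method after edgeR's quasi-likelihood test, was under 0.05. *Odc1*, which encodes the enzyme that commits ornithine to polyamines, had 49.8, 54.7 and 39.1 CPM in WT. It had 34.1, 38.5 and 44.1 CPM in PIN, and 21.6 and 20.8 CPM in PCa. Both PCa libraries lay below all 6 others, and the PIN and WT ranges overlapped.

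*Odc1* fell 2.26-fold in PCa against WT (log2 fold change -1.18, SE 0.23, adjusted p = 0.0248, edgeR). Its 2 PCa values differed by 0.053 on the log2 scale, where the median absolute difference between the PCa libraries over all genes was 0.61. The fall against PIN did not pass the test (log2 fold change -0.87, SE 0.23, adjusted p = 0.0658, edgeR), and PIN against WT differed by -0.30 (SE 0.20, adjusted p = 1, edgeR). The call against WT was close to the threshold and stood under 8 of 17 alternatives. It was lost with only PCa and WT in the model (log2 fold change -1.19, adjusted p = 0.12, edgeR). With 1 of the libraries WT 1, PIN 1, PIN 2, PIN 3 or PCa 2 left out, the adjusted p from edgeR was 0.0504 to 0.0581, while the log2 fold change stayed between -1.18 and -1.13. With WT 1 and PCa 1 both left out, it was -1.16 (adjusted p = 0.0521, edgeR). Without TMM factors, it was -0.62 (adjusted p = 0.0628, edgeR), when the median of all genes moved up to 0.56. The *Odc1* value relative to that median was therefore about as low as before. The most abundant gene took 13.1 to 22.1% of the counts in each WT and PIN library and at most 1.43% in PCa.

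*Srm*, the spermidine synthase gene, had 70.9, 80.1 and 58.3 CPM in WT, 33.3, 45.6 and 57.6 CPM in PIN, and 21.7 and 38.8 CPM in PCa. Every PIN and every PCa library lay below every WT library, by a narrow margin in PIN, and the PIN and PCa ranges overlapped. It was the only one of the 9 genes whose PIN and WT values did not overlap, a pattern that 12.9% of all genes showed in this comparison. The PIN difference was -0.62 on the log2 scale (SE 0.30, adjusted p = 1, unadjusted p = 0.0724, edgeR) and the PCa difference was -1.21 (SE 0.34, adjusted p = 0.0694, edgeR). DESeq2 called the PCa difference at -1.19 (adjusted p = 0.0127), and so did edgeR without PCa 2, at -1.67 (adjusted p = 0.037). Without PCa 1 it was -0.84 and was not called (adjusted p = 0.144, edgeR). A lone PCa library is in these fits assumed to vary like the other groups.

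*Sms*, for spermine synthase on the X chromosome, set the PCa libraries apart from each other. WT had 29.7, 41.8 and 33.9 CPM and PIN 32.0, 35.0 and 42.1 CPM, whereas PCa 1 had 21.5 CPM and PCa 2 had 2.09 CPM. The latter rests on 61 counted reads, with a 95% Poisson interval of 46.7 to 78.4 reads that covers counting error only, against 600 to 1118 reads in the other 7 libraries. PCa 1 was 10.3-fold above PCa 2, a gap larger than that of 91.6% of all genes. Across both libraries the difference from WT was -1.57 (SE 0.79, adjusted p = 0.243, edgeR). Without PCa 1 it was -4.05 (adjusted p = 0.00155, edgeR) and without PCa 2 it was -0.69 (adjusted p = 0.181, edgeR), so that the size was set by PCa 2.

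*Amd1*, which encodes S-adenosylmethionine decarboxylase, had 59.7, 129 and 68.9 CPM in WT, 70.8, 66.4 and 68.9 CPM in PIN and 69.7 and 54.9 CPM in PCa. WT 2 was high and the other 7 libraries lay between 54.9 and 70.8 CPM. PCa differed from WT by -0.46 (SE 0.34, adjusted p = 0.42, edgeR), by -0.045 without WT 2 and by 0.13 without TMM factors. The difference of PIN from WT was -0.32 with all libraries and turned to 0.096 without WT 2. *Amd2*, an intronless near-identical copy, was counted with 1 to 14 reads, and reads shared between both could have been split or dropped, so *Amd1* levels are uncertain to that extent.

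Of the genes that control ODC1, *Oaz1* showed small differences and *Azin1* large ones between single libraries. *Oaz1* had 81.1, 59.9 and 54.0 CPM in WT, 48.9, 54.7 and 63.2 CPM in PIN, and 48.4 and 44.9 CPM in PCa. Both PCa values lay below all others, by a narrow margin below PIN 1. The difference from WT was -0.48 (SE 0.24, adjusted p = 0.234, edgeR), and it was 0.056 without TMM factors. *Azin1* had 165 CPM in WT 1, 783 in WT 2 and 208 in WT 3, then 327, 172 and 222 CPM in PIN and 522 and 198 CPM in PCa. All groups overlapped, and WT 2 and PCa 1 held the highest values. PCa differed from WT by -0.099 (SE 0.73, adjusted p = 0.949, edgeR), and by 0.95 without WT 2.

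Breakdown genes had higher mean levels in PCa for *Sat1* and *Paox*, neither of which passed the test. *Sat1*, for the rate-limiting enzyme of polyamine breakdown, had 103, 132 and 115 CPM in WT, 134, 133 and 124 CPM in PIN, and 318 and 119 CPM in PCa. Only PCa 1 was high, and PCa 2 lay within the WT range. PCa differed from WT by 0.91 (SE 0.37, adjusted p = 0.162, edgeR). Without PCa 2 the difference was 1.47 (adjusted p = 0.012, edgeR) and without PCa 1 it was 0.036 (adjusted p = 0.931, edgeR). PCa 1 also had the highest summed level of 6 leukocyte markers, 336 CPM against 28.1 to 107 CPM in the other libraries. The part of these cells in the *Sat1* level was not tested.

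*Paox*, for the peroxisomal oxidase of acetylated polyamines, was the least abundant of the 9 genes in WT and PIN, with 1.93, 1.95 and 2.82 CPM in WT. It had 3.06, 2.69 and 2.19 CPM in PIN, and 6.28 and 3.22 CPM in PCa. Both PCa libraries lay above the 6 others. They differed from WT by 1.09 (SE 0.46, adjusted p = 0.171, edgeR), on 39 to 195 reads per library. The difference was 0.54 without PCa 1 and 1.503 without PCa 2, with neither called (adjusted p = 0.501 and 0.0892, edgeR). *Smox*, for spermine oxidase, had 15.6, 48.8 and 19.7 CPM in WT, 13.6, 16.3 and 18.9 CPM in PIN and 28.8 and 20.0 CPM in PCa. WT 2 was again the high library. Both PCa libraries lay above all PIN libraries, with a difference of 0.59 (SE 0.48, adjusted p = 0.518, edgeR). Against WT the PCa difference was -0.20 (SE 0.49, adjusted p = 0.825, edgeR) with all libraries and 0.47 without WT 2.

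**Figure D2:**
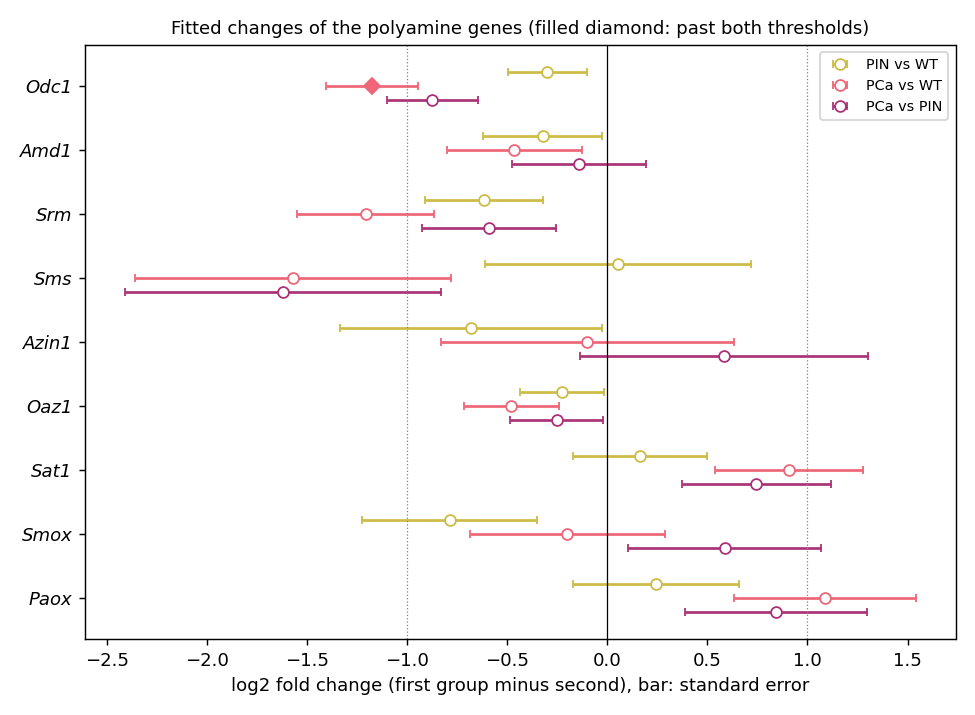
Log2 fold change (horizontal axis, first group minus second) of each polyamine gene in the comparisons PIN vs WT, PCa vs WT and PCa vs PIN, with bars for the standard error and dotted lines at -1 and 1. The filled diamond of *Odc1* in PCa against WT, at -1.18, is the only value past both thresholds, and the *Sms* bars in PCa are the longest.

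Over the 9 genes, 1 was called in PCa against WT, where 8.54% of all genes tested were called and 4.18% were called lower, and 0 in either other comparison. In PIN against WT, edgeR called 0% of all genes, with 492 (3.51%) at an unadjusted p under 0.05 and none of the 9 genes among them, and DESeq2 called 39 genes, again none of the 9. In PCa against PIN 5.72% of all genes were called, and 22.8% had an unadjusted p under 0.05, as did 1 of the 9 (*Odc1*). The median log2 fold change of the 9 genes in PCa against WT was -0.46, beside 0.013 for all genes, with 2 above 0 and 7 below, and 4 of 9 had an unadjusted p under 0.05, as did 27.5% of all genes. Groups did not overlap for 5 of the 9 genes (*Paox* above WT, and *Odc1*, *Srm*, *Sms* and *Oaz1* below it), beside 37.3% of all genes, 17.7% above and 19.6% below. In PCa against PIN the median was -0.14 beside 0.072 for all genes, and 5 of 9 genes did not overlap, beside 44.3% of all genes. The comparisons share libraries, so their values are not independent of each other.

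Ratios of 2 genes within a library do not depend on how libraries are scaled. The ratio of *Oaz1* to *Odc1*, in TPM, was 3.88, 2.6 and 3.28 in WT, 3.41, 3.38 and 3.41 in PIN, and 5.33 and 5.13 in PCa. Both PCa libraries lay above all others, with a mean 1.61 times that of WT, and the 3 PIN libraries were almost equal. The ratio of *Sat1* to *Odc1* was 1.89, 2.21 and 2.70 in WT, 3.61, 3.18 and 2.58 in PIN and 13.5 and 5.23 in PCa. It was 4.14 times the WT mean in PCa, and above every WT and PIN value in PCa 2 as well, where *Sat1* itself was within the WT range.

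The ratio of *Srm* to *Sat1* was 1.20, 1.05 and 0.88 in WT, 0.43, 0.59 and 0.81 in PIN, and 0.12 and 0.57 in PCa. All PIN and PCa libraries lay below all WT libraries, with means 0.59 and 0.33 times the WT mean. The ratio of *Sms* to *Srm* was 0.11, 0.14 and 0.16 in WT and 0.26, 0.20 and 0.20 in PIN, so that PIN lay above WT throughout. PCa 1 was at 0.26 and PCa 2 at 0.014. The ratio of *Smox* to *Paox* was 2.08 and 2.82 in PCa, below the WT values of 3.67, 11.4 and 3.17, while PIN at 2.02, 2.75 and 3.92 overlapped both. *Azin1* to *Oaz1* overlapped between all groups, at 0.35 to 2.25 in WT, 0.54 to 1.15 in PIN and 1.86 and 0.76 in PCa. No test was run on the ratios.

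**Figure D3:**
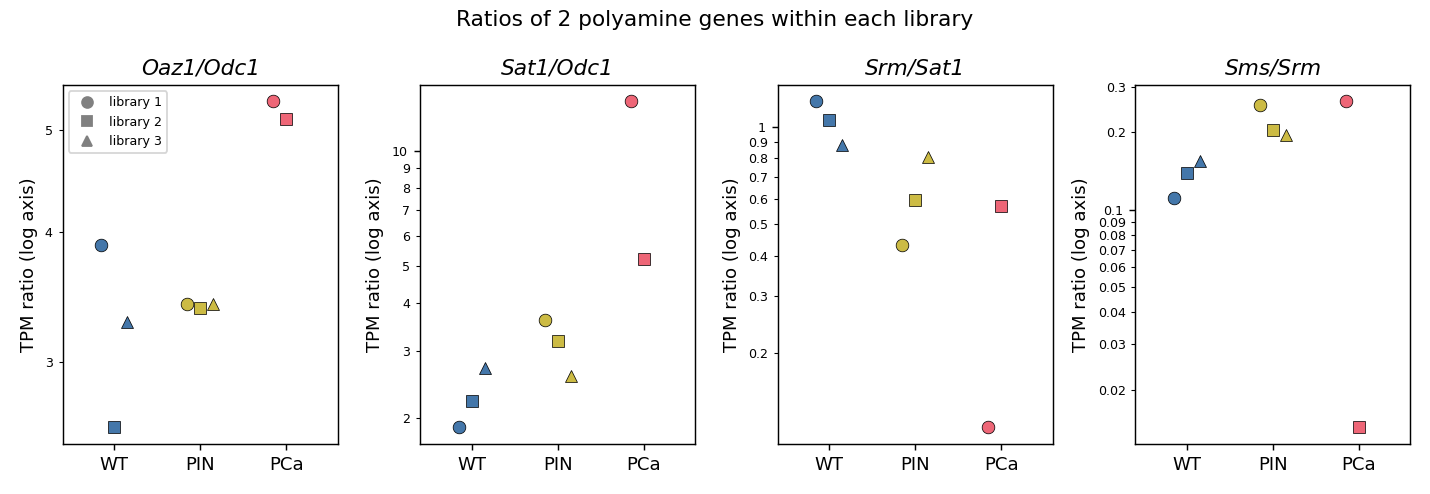
Ratio of the TPM levels of 2 polyamine genes in each library (log axes), with points for libraries and shapes for the library number. *Oaz1* to *Odc1* is above 5 in both PCa libraries and under 4 in all others, and *Srm* to *Sat1* is lower in every PIN and PCa library than in any WT library.

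Genes that feed, move or use polyamines were taken from 5 further lists. In PCa against WT, 1 of 5 tested genes of arginine and ornithine supply was called. *Slc7a2*, a cationic amino acid transporter that takes up arginine and ornithine, had 6.97, 3.08 and 7.21 CPM in WT, 7.88, 8.61 and 8.48 CPM in PIN, and 63.5 and 20.1 CPM in PCa. Both PCa libraries lay above all others, PCa 1 more than PCa 2. It rose 7.25-fold against WT (log2 fold change 2.86, SE 0.53, adjusted p = 0.0228, edgeR) and 5.02-fold against PIN (log2 fold change 2.33, SE 0.53, adjusted p = 0.0463, edgeR). Without PCa 1 the log2 fold change against WT was 1.81 (adjusted p = 0.0346, edgeR), and without PCa 2 it was 3.48 (adjusted p = 0.0071, edgeR). Without PCa 1 the rise against PIN was 1.28 on the log2 scale and no longer passed (adjusted p = 0.106, edgeR), nor did it without WT 1, WT 3 or any 1 PIN library (adjusted p = 0.0686 to 0.168, edgeR). With all libraries, it was also lost under upper-quartile scaling (adjusted p = 0.0616, edgeR), with limma (adjusted p = 0.0628) and with only the 2 groups in the model (adjusted p = 0.0789, edgeR), and it stood under 6 of 17 alternatives. The call against WT stood under 13 of 17, and was lost without WT 1, WT 3 or PIN 3 (adjusted p = 0.0524 to 0.0698, edgeR) and with only the 2 groups in the model (adjusted p = 0.103, edgeR). The related transporter *Slc7a1* showed the lowest value of this list, -0.86 (SE 0.60, adjusted p = 0.398, edgeR), and neither arginase gene was called.

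Among transport genes, *Atp13a4*, a P-type ATPase of the polyamine transporter family, reached 121 and 49.6 CPM in PIN 1 and PIN 3, against 3.00 CPM in PIN 2, 1.61 and 5.59 CPM in PCa, and at most 1.19 CPM in WT. It did not pass in PIN against WT (adjusted p = 1, unadjusted p = 0.00375, edgeR) or in PCa against WT (log2 fold change 3.14, SE 1.61, adjusted p = 0.252, edgeR). *Slc22a3*, for an organic cation transporter, had the lowest value of the list in PCa against WT, at -1.98 (SE 1.34, adjusted p = 0.384, edgeR).

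**Figure D4:**
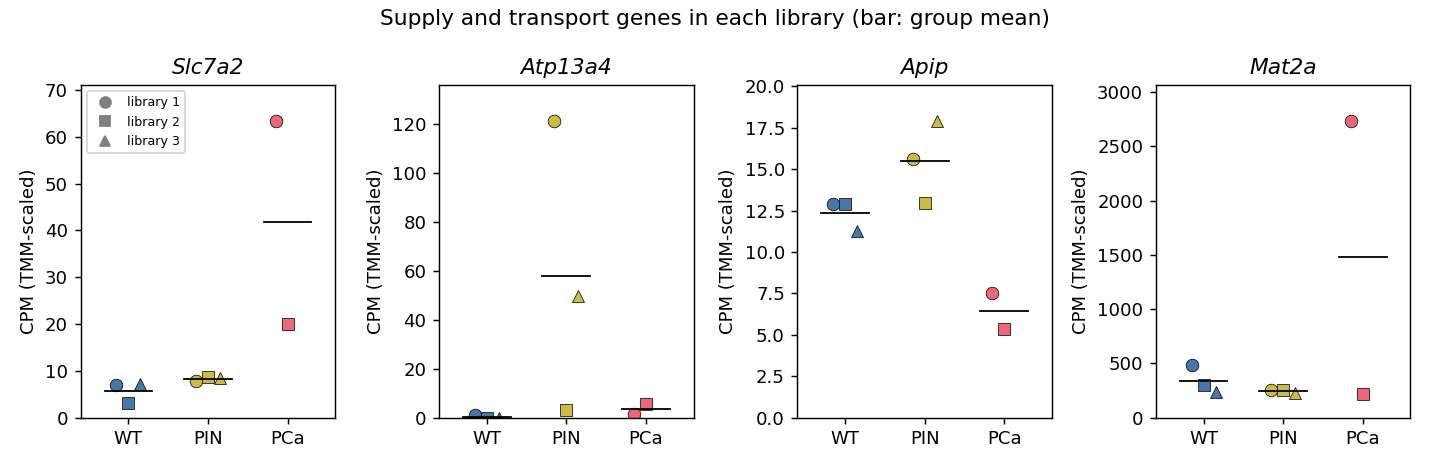
TMM-scaled CPM (linear axes from 0) of *Slc7a2*, *Atp13a4*, *Apip* and *Mat2a* in each library, with bars at the group means. *Slc7a2* is at 63.5 and 20.1 CPM in PCa and at most 8.61 CPM in the WT and PIN libraries, *Atp13a4* is high in PIN 1 and PIN 3, and *Mat2a* is high in PCa 1 alone.

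The aminopropyl groups of spermidine and spermine come from S-adenosylmethionine, and the remaining methylthioadenosine is recycled to methionine. Of 7 tested genes of these steps, none was called in PCa against WT by edgeR, where 3 had an unadjusted p under 0.05. *Apip*, for a dehydratase of the methionine salvage, had 12.9, 12.9 and 11.3 CPM in WT, 15.6, 12.98 and 17.9 CPM in PIN and 7.53 and 5.35 CPM in PCa. Both PCa libraries lay below all others. The fall was called against PIN (2.41-fold, log2 fold change -1.27, SE 0.29, adjusted p = 0.0484, edgeR), just under the threshold. Against WT it was the lowest of its list, at -0.94 (SE 0.29, adjusted p = 0.0831, edgeR). The call against PIN was lost when any 1 of WT 1, WT 3, the PIN libraries or PCa 2 was left out (adjusted p = 0.0714 to 0.187, edgeR). With all libraries, it was lost under both other scalings, both other filters and the 2-group model (adjusted p = 0.0522 to 0.0981, edgeR), and it stood under 5 of 17 alternatives. *Mat2a*, for the enzyme that makes S-adenosylmethionine, had the highest value of the list, 2.12 (SE 0.83, adjusted p = 0.149, edgeR). It rested on 2737 CPM in PCa 1, whereas PCa 2 had 221 CPM.

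Spermidine is also the source of hypusine, the modified lysine of the translation factor eIF5A. All 4 genes of that list were tested and none was called in any comparison by edgeR, with 1 at an unadjusted p under 0.05 in PCa against WT. All 4 had values below 0 in PCa against WT, from -1.53 for *Eif5a2* (SE 0.62, adjusted p = 0.161, edgeR) to -0.24 for *Eif5a* (SE 0.31, adjusted p = 0.661, edgeR). The list of other polyamine enzymes left 2 of 7 genes for testing, with none called by edgeR and none at an unadjusted p under 0.05. In PCa against WT, *Azin2* (older symbol *Adc*) was at -0.62 (SE 1.065, adjusted p = 0.747, edgeR). *Sat2* was at -1.08 (SE 0.64, adjusted p = 0.322, edgeR). The diamine oxidase gene *Aoc1*, under its older symbol *Abp1*, was counted with 92 reads in PCa 1, 1 read in PCa 2 and 1 to 6 reads in the other libraries. It was above 1 CPM in PCa 1 alone and was therefore not tested. *Aoc1* was picked out here after its values were seen.

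Prostate secretion under androgen control was read from 8 genes, of which 3 were called in PCa against WT. *Pbsn* (log2 fold change -8.70, adjusted p = 0.0123, edgeR) and *Tgm4* (-7.81, adjusted p = 0.0123, edgeR), both secretory genes of mature luminal cells, fell. Each stood under 16 of 17 alternatives, the 2-group model being the exception (adjusted p = 0.0778 and 0.0911, edgeR). *Fkbp5*, a gene induced by androgen, rose by 3.07 (adjusted p = 0.0455, edgeR), and by 1.59 (adjusted p = 0.137, edgeR) without PCa 1. Leaving out any 1 WT or PIN library also ended that call (adjusted p = 0.0538 to 0.139, edgeR). So did limma (adjusted p = 0.0595) and the 2-group model (adjusted p = 0.108, edgeR) with all libraries, and it stood under 6 of 17 alternatives. The largest fitted fall was that of *Spink3*, -11.39, which was not called, since WT 1 alone held 3596 CPM and WT 2 and WT 3 were at 0. *Sbp*, for spermine binding protein, had 9552 CPM in WT 1 and 5784 CPM in PCa 1. PCa 2 had 76.2 CPM, and the 5 remaining libraries had between 0 and 14.4 CPM. Both PCa libraries thus lay above all PIN libraries. The summed seminal vesicle genes were also highest in WT 1 and PCa 1, but single genes of that list differed. *Svs3a* had 190.5 CPM in PCa 2 and 47.56 CPM in WT 1, and *Svs4* had 65.08 CPM in PCa 2 and 25.55 CPM in PCa 1.

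Likeness to a gene's pattern was measured as the root mean square difference of log2 CPM over the 8 libraries, each gene centred on its own mean. The 5 genes most like *Odc1* were *Tor2a*, *Rnf181*, *Kdelr1*, *Adipor1* and *Vkorc1*, at 0.090 to 0.104. *Tor2a*, the nearest, had 41.1 to 51.9 CPM in WT, 31.0 to 41.1 CPM in PIN and 20.4 and 18.2 CPM in PCa. Those most like *Amd1* were *Senp2*, *Rnf138*, *Arpc2*, *Cmpk1* and *Mapk8*, at 0.080 to 0.099. All 5 had their highest CPM in WT 2, the high library of *Amd1*, which follows from how they were picked. The nuclear RNA *Malat1* was nearest to *Sat1*, at 0.12, with 4941 CPM in PCa 1 and 1750 to 2229 CPM in all other libraries, followed by *Atg4a*, *2700029M09Rik*, *Ccdc34* and *Psmd10*, at up to 0.16.

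On the X chromosome of mm9, *Sms* (chrX:153881787-153930219, minus strand) and *Sat1* (chrX:151647675-151650992, minus strand) lie 2234 kb apart, and the tested genes within 3 Mb on either side were looked at after the *Sms* values had been seen. In PCa 2, *Sms* differed by -4.04 log2 units from the mean of the WT and PIN libraries. *Mbtps2*, whose lower end is 92 kb from that of *Sms*, differed from its own such mean by 0.052 and *Sat1* by -0.052. Of the 13 neighbours, 9 were within 1 log2 unit in PCa 2, 3 were lower (*Ptchd1*, *Mtap7d2* and *Gpr64*) and 1 was higher (*Map3k15*). In PCa 2 no gene of the window came as far down as *Sms*. In PCa 1, where *Sms* was at -0.72, *Rps6ka3* (-0.85) and *Sh3kbp1* (-0.87) were lower.

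**Figure D5:**
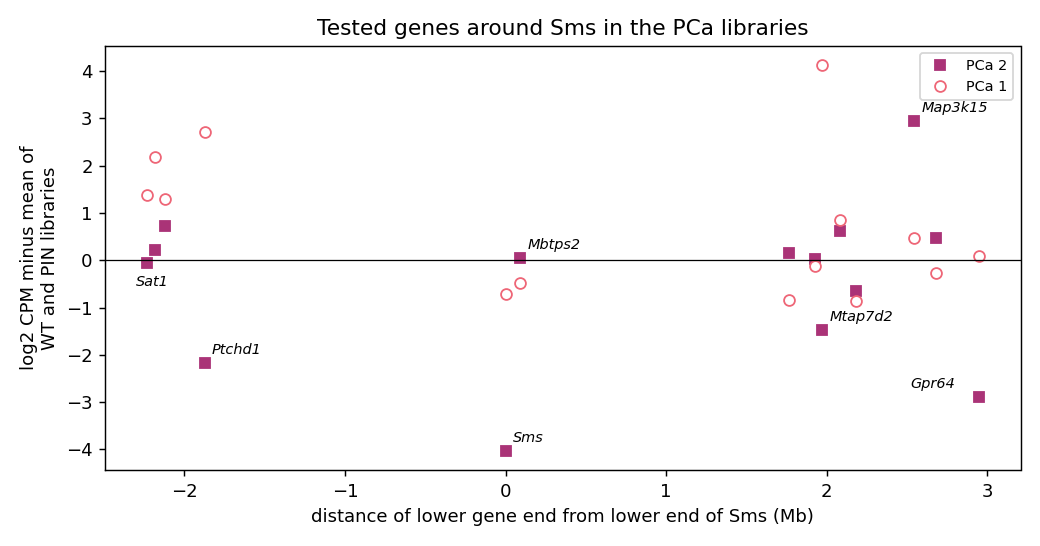
Log2 CPM of each tested gene around *Sms* in PCa 1 and PCa 2 minus the mean of the WT and PIN libraries (vertical axis), against the distance of its lower end from that of *Sms* in Mb. *Sms* is the lowest point at -4.04 in PCa 2, and its nearest neighbour *Mbtps2* lies at 0.052.

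The other genes lie at chr12:17551679-17558308 (*Odc1*, plus strand), chr10:40007265-40021992 (*Amd1*, minus), chr4:147965612-147969102 (*Srm*, plus), chr2:131317232-131351658 (*Smox*, plus), chr7:147311556-147320233 (*Paox*, plus), chr10:80289401-80292035 (*Oaz1*, plus) and chr15:38417185-38449021 (*Azin1*, minus) of mm9. *Odc1* contains a small nucleolar RNA of the SNORA42 family and *Oaz1* the microRNA gene *Mir1982*, whose reads would fall on the same stretch. No other annotated gene overlapped the remaining 7.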

How the data were processed

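RNA of 3 WT, 3 PIN and 2 PCa prostate tissues was sequenced in pairs of reads after removal of ribosomal RNA. Per the labels and methods, the authors trimmed reads with cutadapt 1.9.1, aligned them to mm9 with HISAT2 2.1.0 and counted them per gene with HTSeq 0.6.1. The deposited values are raw counts, and a further deposited column holds each gene's exon length, used here for TPM. The strand setting of the counting is not given in the sources used here.

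Counts were tested in R 4.3.3 with edgeR 4.0.16 (quasi-likelihood F-test, TMM factors, all 8 libraries in 1 model, 5 residual degrees of freedom, Benjamini-Hochberg adjustment over the 14034 genes above 1 CPM in 2 or more libraries). Calls needed a log2 fold change beyond 1 in either direction and an adjusted p under 0.05. TPM were not TMM-scaled. The standard error (SE) was the fold change divided by the root of F. Steps were tested on simulated counts. Labels give replicate numbers and, for all libraries but WT 1, a distinct s-number whose meaning is not stated. They do not say whether libraries came from separate animals, so p-values measure the spread between these libraries.

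Alternatives were upper-quartile and total-count scaling, DESeq2 1.42.0, limma 3.58.1, other filters, 2-group fits, a replicate block and libraries left out. Named outside the 10 genes were called genes of the lists, the highest and lowest of each list in PCa against WT, and the 5 genes most alike in pattern. *Sbp*, *Aoc1*, *Amd2*, the cell type markers and the neighbours of *Sms* were named outside that rule. The members and lists were chosen with earlier results of these data known. The transgene itself and 1 gene of the lists are not reported here.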

Additional observations from a re-analysis of the deposited data

How the results depend on the processing

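*Odc1* kept its direction in PCa against WT under 17 of 17 alternatives and was called in 8, with adjusted p of 5.52e-05 to 0.12. Genes called in PCa against WT (1198) numbered 2394 with total-count scaling (2005 higher and 389 lower, against 611 and 587), 2487 with DESeq2, 130 with only the 2 groups in the model and 347 (without WT 3) to 2477 (without PCa 1) with 1 library left out. In PCa against PIN (803), they numbered 1984 with DESeq2, 388 with 2 groups and 78 (without PIN 3) to 2251 (without PCa 1), and total-count scaling gave 786 higher and 321 lower against 358 and 445. DESeq2 called 39 genes in PIN against WT (edgeR 0). Of the 9 polyamine genes in PCa against WT, DESeq2 called 2 (*Srm* and *Odc1*), the 2-group fit 0, total-count scaling 1 (*Sat1*, higher, in place of *Odc1*) and fits with 1 library left out 0 to 2. In PCa against PIN these left-out fits called 0 to 1. The replicate numbers did not pair the samples (residuals of same-numbered libraries correlated at -0.056 to 0.28 over 7 pairs), and the replicate block gave 413 and 151 genes, with 0 polyamine genes called in PCa against WT (*Odc1* at adjusted p = 0.0871, edgeR). The block also ended the calls of *Slc7a2* (adjusted p = 0.0943, edgeR) and *Apip* (adjusted p = 0.148, edgeR) against PIN and of *Fkbp5* (adjusted p = 0.109, edgeR) against WT. With WT 1 and PCa 1 both left out, an alternative chosen after seeing the data, 2245 and 2422 genes and 1 polyamine gene (*Sms*) were called in PCa against WT and against PIN.

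Of 459 values of the 9 genes under alternatives, 23 reversed in direction. Total-count scaling moved the median of all genes to 0.56 in PCa against WT and to 0.42 against PIN. It turned *Azin1* to 0.58, *Amd1* to 0.13, *Smox* to 0.43 and *Oaz1* to 0.056 in the former, and *Amd1* to 0.22 and *Oaz1* to 0.10 in the latter. In PCa against WT, *Azin1* was 0.030 with upper-quartile scaling and 0.10 with limma. With 1 library left out, the values that turned ranged, in PIN against WT, from -0.53 to 0.096 (without WT 2) for *Amd1*, from -0.066 (without PIN 3; -0.054 without WT 1) to 0.20 for *Sms* and from -1.04 to 0.37 (without WT 2) for *Azin1*. In PCa against WT they ranged from -0.49 to 0.47 (without WT 2; 0.055 without PCa 2) for *Smox* and from -0.95 to 0.95 (without WT 2; 0.46 without PCa 2) for *Azin1*. In PCa against PIN they ranged from -0.31 to 0.043 (without PCa 2) for *Amd1*, from -0.12 (without PCa 1) to 1.31 for *Sat1* and from -0.27 (without PCa 1) to 1.14 for *Azin1*. With WT 1 and PCa 1 both left out, *Sms* was -0.054 in PIN against WT, *Sat1* -0.044 in PCa against WT, and *Sat1* -0.13 and *Azin1* -0.27 in PCa against PIN. The cause of these changes was not tested. The 2 PCa libraries limit every comparison with PCa.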
